A study of Homo sapiens with 14 samples.

Results

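The guides described here target 10 transcription factors of the endothelial and blood lineages, ETV2, TAL1, LYL1, ERG, FLI1, SOX7, SOX18, RUNX1, RUNX3 and SPI1. They were chosen by the target gene named beside each guide, and not by any measured value: 70 of the 11364 guides in the library matched, 7 for each gene. The screen used H9, an established human pluripotent stem cell line with a doxycycline-inducible Cas9, which carried a pooled library against transcription factors. Cells were differentiated to cardiomyocytes in a 2D or a 3D system and sorted at day 25 on cardiac troponin T (TNNT2), a sarcomere protein of cardiomyocytes. The 14 libraries hold 3 of 2D TNNT2- cells, 3 of 2D TNNT2+ cells, 3 of 3D TNNT2- cells, 3 of 3D TNNT2+ cells and 2 of undifferentiated cells at day 0. All groups share the H9 background, labelled WT, the Cas9 insertion and the guide library, and all were grown in mTESR1 before differentiation. The labels do not give the doxycycline schedule, and 1 stem cell line stands for all genotypes. For the sorted cells they speak of 3 biological replicates; nothing says whether the day 0 libraries came from separate cultures, so p-values against day 0 measure the spread between libraries, which may be technical.

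Endothelial cells, blood cells and cardiomyocytes all descend from mesoderm, and the factors targeted here mark the branch that leads to vessels and blood. ETV2 is an ETS factor that starts the hemato-endothelial programme, and TAL1 (SCL), a bHLH factor, is needed for blood formation; in mouse embryos, loss of either lets cells of this branch take on cardiac gene expression. LYL1 is a close bHLH relative of TAL1, ERG and FLI1 are ETS factors that maintain endothelial identity, and SOX7 and SOX18 are SOXF factors of vascular development. RUNX1 drives the emergence of blood stem cells from endothelium, RUNX3 is a RUNX factor of lymphocytes and other cells, and SPI1 (PU.1) is an ETS factor of myeloid and B cells. A pooled knockout screen counts how many cells carry each guide: a guide more abundant in TNNT2- cells than in TNNT2+ cells was carried by relatively fewer of the cells that became cardiomyocytes. Only guide DNA was counted, so neither the expression of these genes, nor the cutting of their loci, nor markers of the sorted cells could be checked. In these counts, a change of fate and a change of growth or survival cannot be told apart.

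In RefSeq's GRCh38.p14 annotation the ETS genes lie at chromosome 19, 35641745 to 35644871 (ETV2), chromosome 21, 38367261 to 38661783 (ERG), chromosome 11, 128685132 to 128813267 (FLI1) and chromosome 11, 47354860 to 47378547 (SPI1). The bHLH genes lie at chromosome 1, 47216290 to 47232335 (TAL1) and chromosome 19, 13099033 to 13102858 (LYL1), and the SOXF genes at chromosome 8, 10723768 to 10730511 (SOX7) and chromosome 20, 64047582 to 64049639 (SOX18). The RUNX genes lie at chromosome 21, 34787801 to 35049302 (RUNX1) and chromosome 1, 24899511 to 24965138 (RUNX3). The guides are known here by a gene name and a number, such as RUNX3_6, and their sequences and cut sites were not used here. The 7 guides of a gene share a target, so they were never treated as replicates of a condition.

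Each library held between 22355936 and 31671019 reads. The 70 guides took 0.581% to 0.720% of the reads in a library, against 0.616% of the guides. 4 libraries held many guides at low counts: under 10 reads were counted for 31 of these 70 guides in 3D TNNT2+ replicate 3, for 17 in 3D TNNT2- replicate 3, for 8 in 3D TNNT2- replicate 2 and for 23 in day 0 replicate 2, where the shares over all guides were 43.6%, 27.6%, 11.1% and 32.5%; of the 100 control guides 43, 17, 2 and 19 were that low. The first 3 are called depleted below, as is day 0 replicate 2. In the other 10 libraries at most 3 of the 70 guides were that low. Values given without the 3 depleted 3D libraries rest on replicate 1 as the only 3D TNNT2- library left. Of the 980 values (70 guides in 14 libraries), 86 lay under 10 reads, and 56 of these fell in the 3 depleted 3D libraries. FLI1_7 fell under 10 reads in 5 libraries, more than any other of the 70 guides, and 18 guides never did. Levels below are CPM (a guide's reads scaled to a common library total), summed over a gene's 7 guides where a gene is named; differences are log2 fold changes of the authors' normalized values with 10 added, averaged over a gene's guides, with the standard error (SE) from limma's moderated test.

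In 2D cultures, the guides against none of the 10 endothelial and blood factors passed the test for a difference between the sorted fractions, adjusted over all 1621 genes tested. The smallest adjusted p over these 10 genes was 0.963, and limma called none of the 1621 genes in either direction (0% called higher, 0% called lower); edgeR and DESeq2 on the recovered reads also called none of the 1621. Guides against RUNX3 were the most shifted of the group, with 1.64 times the level in TNNT2- cells on the log2(value + 10) scale. The other 9 genes differed by between -0.20 (SOX7) and 0.26 (FLI1) on the log2 scale. The median over the 10 genes was 0.03, beside 0.05 over all genes, and 7 of 10 lay above 0, beside 56.9% of all genes. Scaled on the control guides instead, the medians were 0.15 and 0.17 and 9 of the 10 lay above 0, while 4 of the 10 were above the median of all genes under both scalings.

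RUNX3 guides summed to 592, 733 and 645 CPM in 2D TNNT2- replicates 1 to 3, against 424, 484 and 507 CPM in 2D TNNT2+ replicates 1 to 3. All 3 TNNT2- libraries were above all 3 TNNT2+ libraries, with means of 657 ± 71.1 and 472 ± 42.5 CPM (SD, n = 3 each). The log2 fold change was 0.71 ± 0.28 (95% confidence interval 0.13 to 1.30), which did not pass adjustment over all genes (limma adjusted p = 0.963). RUNX3 was the only gene of the 10 whose fractions did not overlap and the only gene with an unadjusted p under 0.05. Over all genes, 4.81% were higher and 3.64% lower in TNNT2- cells without overlap and 2.59% were higher at an unadjusted p under 0.05, beside this 1 gene of 10. The value kept its sign in all 16 alternative settings. It ran from 0.40 without replicate 1 of the TNNT2+ cells to 0.89 without their replicate 3. Leaving out any library could not turn the sign, as the fractions did not overlap, and all settings drew on the same 6 libraries. The unadjusted p was under 0.05 in 12 of the settings, which are not independent of each other, and the smallest adjusted p was 0.585.

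The 7 RUNX3 guides differed among themselves. RUNX3_6 counted 100.1, 138 and 68.4 CPM in TNNT2- cells, against 23.9, 47.7 and 31.2 CPM in TNNT2+ cells (log2 fold change 1.53 ± 0.59, adjusted p = 0.986). RUNX3_4 counted 115, 130.3 and 108 CPM in TNNT2- cells, against 31.3, 71.6 and 94.5 CPM in TNNT2+ cells. RUNX3_1 counted 151, 133 and 137 CPM in TNNT2- cells, against 76.8, 126 and 90.9 CPM in TNNT2+ cells. In these 3 guides the fractions did not overlap. The largest fold change of a RUNX3 guide, 2.26 for RUNX3_2, came with 34.2, 31.8 and 62.2 CPM in TNNT2- cells, against 0, 32.4 and 37.0 CPM in TNNT2+ cells, where it was not counted in 1 library. Over the 7 guides, 5 were higher and 2 lower in TNNT2- cells, with the lowest at -0.33. RUNX1, its relative with a role in blood emergence, showed no such separation: its guides summed to 649.8, 539 and 611 CPM in TNNT2- cells, against 825, 619.8 and 583 CPM in TNNT2+ cells (log2 fold change 0.08 ± 0.22).

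The early regulators differed between the fractions by less than their errors. ETV2 guides summed to 577, 456 and 552 CPM in TNNT2- cells, against 594, 532 and 531 CPM in TNNT2+ cells, and the fractions overlapped (log2 fold change -0.06 ± 0.26, 95% confidence interval -0.60 to 0.48). A single guide, ETV2_1, had no overlap, with 32.9, 50.1 and 53.2 CPM in TNNT2- cells and 55.1, 114 and 148 CPM in TNNT2+ cells (-1.16 ± 0.55, adjusted p = 0.986). The other ETV2 guides lay on both sides of 0, 3 of the 7 guides being higher and 4 lower. TAL1 guides summed to 704, 764 and 851 CPM in TNNT2- cells, against 767, 821 and 619.7 CPM in TNNT2+ cells (0.02 ± 0.22, 95% confidence interval -0.45 to 0.49). Its 7 guides ranged between -0.70 for TAL1_1 and 0.42, and none separated the fractions. LYL1 guides summed to 482, 608 and 719 CPM in TNNT2- cells, against 492, 589 and 683 CPM in TNNT2+ cells (0.02 ± 0.25). Single LYL1 guides went both ways: LYL1_2 counted 61.5, 50.0 and 37.4 CPM in TNNT2- cells, against 98.3, 90.4 and 81.6 CPM in TNNT2+ cells, and LYL1_4 counted 35.0, 60.7 and 67.7 CPM in TNNT2- cells, against 114, 101 and 95.5 CPM in TNNT2+ cells, while LYL1_6 had the largest difference, 1.03, in the other direction.

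Among the endothelial maintenance factors, FLI1 guides summed to 799, 806 and 562 CPM in TNNT2- cells, against 582, 639 and 734 CPM in TNNT2+ cells (0.26 ± 0.25). ERG guides summed to 321, 401 and 373 CPM in TNNT2- cells, against 269.5, 342 and 376 CPM in TNNT2+ cells (-0.04 ± 0.47). Both overlapped between fractions, and ERG had the widest error of the 10 genes, with its guides ranging between -1.45 and 1.98 (ERG_3). SOX7 guides summed to 675, 512 and 755 CPM in TNNT2- cells, against 849, 777 and 671 CPM in TNNT2+ cells (-0.20 ± 0.21). SOX18 guides, the most abundant of the 10 sets on average in both 2D fractions, summed to 1032, 820.5 and 1187 CPM in TNNT2- cells, against 1081, 954 and 975 CPM in TNNT2+ cells (0.04 ± 0.17). The SOXF pair differed in how its guides varied: the 7 SOX18 guides lay between -0.31 and 0.45 (SOX18_1), and the 7 SOX7 guides between -1.20 (SOX7_3) and 1.30 (SOX7_4). The myeloid factor SPI1 summed to 479.7, 489 and 379 CPM in TNNT2- cells, against 388, 403 and 521 CPM in TNNT2+ cells (0.22 ± 0.43). Its guides ranged between -1.70 (SPI1_1) and 1.47, and SPI1_5 had no overlap, at 45.9, 50.5 and 41.3 CPM in TNNT2- cells and 23.8, 9.27 and 33.4 CPM in TNNT2+ cells.

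Guide by guide, 34 of the 70 were higher and 36 lower in 2D TNNT2- cells, and their median of -0.02 stood beside 0.01 over all 11346 guides tested and -0.04 over the 100 control guides. In 4 guides the TNNT2- libraries lay above all TNNT2+ libraries (RUNX3_1, RUNX3_4, RUNX3_6 and SPI1_5), and in 4 below them (ETV2_1, LYL1_2, LYL1_4 and SOX7_3), where 4.41% of all guides did so in each direction. At an unadjusted p under 0.05 there was 1 guide higher and 1 lower, beside 1.67% of all guides each way. These shares are near the background of the table. The most changed guide of RUNX1 was RUNX1_6, at 1.23, and that of FLI1 was FLI1_5, at 0.97, both with overlapping fractions. No guide was called in 2D by limma (smallest adjusted p over the 70 guides 0.986).

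In 3D cultures the differences between fractions were larger in size and far less certain. The median SE over the 70 guides was 2.15 on the log2 scale, against 0.56 in 2D, and no gene of the 1621 was called by limma (0% higher, 0% lower, smallest adjusted p over the 10 genes 0.99). Of the 10 genes, RUNX1 and LYL1 stood highest in TNNT2- cells and FLI1 and SOX7 lowest. None of the 10 had an unadjusted p under 0.05, beside 0.802% of all genes higher and 2.1% lower, and none separated the fractions, beside 2.78% of all genes higher and 4.75% lower. The median over the 10 genes was -0.07, beside -0.08 over all genes, with 5 above 0 and 5 below. With TMM scaling the medians were 0.17 and 0.13, with 6 of the 10 above 0 and, as before, 5 above the median of all genes.

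RUNX1 guides summed to 625, 558 and 737 CPM in 3D TNNT2- cells, against 612, 684 and 210.0 CPM in 3D TNNT2+ cells. Replicate 3 of the TNNT2+ cells was far below the other libraries: 5 of the 7 RUNX1 guides had under 10 reads there, and RUNX1_2 alone held 91.8% of the gene's reads. The log2 fold change of 1.43 ± 0.90 (95% confidence interval -0.45 to 3.31, adjusted p = 0.99) was 0.29 without that library and 0.22 without the 3 depleted 3D libraries. LYL1 guides summed to 469, 719 and 805 CPM in TNNT2- cells, against 359, 520.1 and 186 CPM in TNNT2+ cells. Again replicate 3 of the TNNT2+ cells was the lowest, and LYL1_1 held 88.8% of the gene's reads in it. The LYL1 fold change of 1.20 ± 0.84 was 0.52 without that library and 0.13 without the 3 depleted libraries. The 2 highest values of the group were thus both smaller without 3D TNNT2+ replicate 3, and smaller still without the 3 depleted libraries. RUNX3, the most shifted gene of the group in 2D, summed to 518, 499.8 and 621 CPM in 3D TNNT2- cells, against 748, 642 and 547 CPM in 3D TNNT2+ cells. Its fold change was 0.59 ± 0.69 with all libraries, -0.14 without 3D TNNT2+ replicate 3 and -0.54 without the 3 depleted libraries, so the sign turned with the libraries kept.

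FLI1 was the lowest of the 10 genes, and its difference was nearly as large without the depleted libraries. That second value rests on replicate 1 as the only TNNT2- library left. Its guides summed to 704, 539 and 644 CPM in 3D TNNT2- cells, against 699, 881 and 712 CPM in 3D TNNT2+ cells; 2 of the TNNT2- libraries lay below every TNNT2+ library and replicate 1 lay within their range. The log2 fold change was -0.91 ± 0.68 (95% confidence interval -2.32 to 0.50, adjusted p = 0.99) and -0.75 without the 3 depleted libraries, and it was below 0 in all 17 alternatives. Of its 7 guides 2 were higher and 5 lower in TNNT2- cells, with FLI1_4 at 3.00 and FLI1_2 at 2.49 on the high side and FLI1_3, FLI1_5 and FLI1_7 lowest. FLI1_3 counted 64.5, 0.211 and 0.410 CPM in TNNT2- cells, against 99.4, 144 and 194 CPM in TNNT2+ cells (-5.64 ± 2.60, adjusted p = 1). It was almost absent from both depleted TNNT2- libraries and also lower in the remaining one than in any TNNT2+ library. FLI1_7 counted 0.0763, 0.169 and 0 CPM in TNNT2- cells, against 4.47, 29.5 and 0.0408 CPM in TNNT2+ cells. Its fractions overlapped (-2.59 ± 1.92), and it was near 0 in all 3 TNNT2- libraries, the well covered replicate 1 included, while it counted 16.3, 22.2 and 33.5 CPM in 2D TNNT2- cells and 18.3, 42.0 and 44.4 CPM in 2D TNNT2+ cells. With the median over guides in place of the mean, the FLI1 difference was -0.13.

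SOX7 guides summed to 810.4, 952 and 948 CPM in 3D TNNT2- cells, against 954, 753 and 1176 CPM in 3D TNNT2+ cells (-0.84 ± 0.62), and the difference was -0.06 without the 3 depleted libraries. SOX7_3 was lower in TNNT2- cells without overlap in both systems: it counted 61.0, 72.2 and 0.0947 CPM in 3D TNNT2- cells, against 177, 109 and 211 CPM in 3D TNNT2+ cells (-3.93 ± 1.97, adjusted p = 1). In 2D it counted 34.5, 46.2 and 36.0 CPM in TNNT2- cells, against 172, 56.6 and 68.0 CPM in TNNT2+ cells (-1.20 ± 0.61, adjusted p = 0.986). Lower without overlap were 4.41% of all guides in 2D and 3.2% in 3D, and the share lower in both was not counted. No other SOX7 guide separated the fractions in 2D, and SOX7_2 was higher in TNNT2- cells without overlap in 3D. SOX7_2 counted 141, 135 and 262 CPM in TNNT2- cells, against 106, 94.9 and 20.5 CPM in TNNT2+ cells. SOX7_1 counted 60.9, 15.9 and 6.13 CPM in TNNT2- cells, against 62.8, 76.6 and 303 CPM in TNNT2+ cells. SOX7_1 and SOX7_2 share a target and lay on opposite sides of 0. SOX18 guides summed to 922, 712 and 914 CPM in TNNT2- cells, against 707, 782 and 1194 CPM in TNNT2+ cells (-0.17 ± 0.56, 0.30 without the 3 depleted libraries).

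The remaining 4 genes had differences well inside their errors. ETV2 guides summed to 579, 741 and 489.7 CPM in 3D TNNT2- cells, against 616, 595 and 524 CPM in 3D TNNT2+ cells (-0.28 ± 0.89). TAL1 guides summed to 675, 870.4 and 498 CPM in TNNT2- cells, against 625, 910.2 and 372 CPM in TNNT2+ cells (0.03 ± 0.70). For these early regulators the fractions overlapped, as in 2D. ERG guides summed to 343, 346 and 919 CPM in TNNT2- cells, against 504, 249 and 398 CPM in TNNT2+ cells (0.50 ± 0.84). The highest value came from TNNT2- replicate 3, where ERG_5 held 42.1% of the gene's reads. SPI1 guides summed to 375, 358 and 628 CPM in TNNT2- cells, against 347, 364 and 663 CPM in TNNT2+ cells (-0.45 ± 0.88). In both fractions replicate 3 was the highest.

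Of the 70 guides, 37 were higher and 33 lower in 3D TNNT2- cells, with a median of 0.07 beside -0.13 over all 11331 guides tested and 0.09 over the control guides. On the authors' normalized scale 4 were higher without overlap (LYL1_7, RUNX1_5, SOX7_2 and TAL1_2), beside 4.01% of all guides, and 6 were lower (ERG_7, ETV2_5, FLI1_3, SOX7_1, SOX7_3 and TAL1_6), beside 3.2%. At an unadjusted p under 0.05, 2 of the 70 were lower (FLI1_3 and SOX7_3), beside 0.883% of all guides, and none higher, beside 0.406%. ETV2_5 counted 15.6, 0.253 and 0.158 CPM in TNNT2- cells, against 35.0, 66.7 and 99.9 CPM in TNNT2+ cells (-5.28 ± 2.92). ERG_7 counted 37.7, 0.464 and 0.126 CPM in TNNT2- cells, against 36.6, 38.4 and 85.9 CPM in TNNT2+ cells (-4.48 ± 2.91). For both, the depleted TNNT2- replicates 2 and 3 held next to none, while in replicate 1 ETV2_5 was below every TNNT2+ library and ERG_7 was in their range in CPM. LYL1_7 counted 126, 103 and 353 CPM in TNNT2- cells, against 94.5, 67.8 and 0.0816 CPM in TNNT2+ cells (3.53 ± 1.99). TAL1_2 counted 145, 51.3 and 69.1 CPM in TNNT2- cells, against 34.6, 39.8 and 0.204 CPM in TNNT2+ cells (3.01 ± 2.49). RUNX1_5 counted 119.8, 70.9 and 66.6 CPM in TNNT2- cells, against 82.7, 41.7 and 0.122 CPM in TNNT2+ cells (2.74 ± 2.38). These 3 were all but lost from the depleted TNNT2+ replicate 3, and in CPM RUNX1_5 overlapped between the fractions while LYL1_7 and TAL1_2 did not. TAL1_6 counted 54.4, 41.9 and 0.158 CPM in TNNT2- cells, against 95.6, 93.9 and 45.7 CPM in TNNT2+ cells (-3.08 ± 2.39), and the fractions overlapped in CPM. The most changed guide of SOX18 was SOX18_7 at -3.45, that of RUNX1 was RUNX1_3 at 3.11, that of SPI1 was SPI1_4 at 2.92 and that of RUNX3 was RUNX3_5 at 2.43, all with overlapping fractions.

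Whether the sort separated these knockouts differently in 3D than in 2D was tested as the difference of the 2 fold changes, 3D minus 2D. No gene differed after adjustment, among these 10 (smallest adjusted p 0.976) or among all 1621 (0% higher, 0% lower); at an unadjusted p under 0.05 none of the 10 did, beside 0.37% of all genes higher and 1.97% lower. FLI1 came nearest, at -0.91 in 3D and 0.26 in 2D, a difference of -1.17 ± 0.62 (adjusted p = 0.976), and -1.004 without the 3 depleted libraries. It stayed below 0 in all 23 alternatives, from -1.48 with a pseudocount of 1 to -0.41 with edgeR. For RUNX1 the difference was 1.35 ± 1.07 and for LYL1 1.19 ± 0.81, and they were 0.14 and 0.12 without those libraries. RUNX3 stood at 0.59 in 3D and 0.71 in 2D, a difference of -0.12 ± 0.84 (95% confidence interval -1.89 to 1.65). That difference was -0.86 without 3D TNNT2+ replicate 3 and -1.25 without the 3 depleted libraries. The 10 genes had a median difference of -0.17, beside -0.15 over all genes.

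Set against day 0, none of the 10 genes passed the test in either fraction of either system. The 4 comparisons share the same 2 day 0 libraries, so their values are given side by side and not as repeats of each other. The median log2 fold change over the 10 genes was 0.57 in 2D TNNT2- cells and 0.59 in 2D TNNT2+ cells, beside 0.72 and 0.69 over all genes, and 0.45 in 3D TNNT2- cells and 0.08 in 3D TNNT2+ cells, beside 0.08 and 0.18. In 2D most genes lay above 0, 84.5% of them in TNNT2- cells and 82.8% in TNNT2+ cells. No gene was called by limma in any of the 4 comparisons (0% higher and 0% lower in each), and the smallest adjusted p over the 10 genes was 0.492 and 0.578 for 2D TNNT2- and TNNT2+ cells and 0.997 and 0.907 for 3D TNNT2- and TNNT2+ cells. At an unadjusted p under 0.05 there was TAL1 in 2D TNNT2+ cells, beside 4.01% of all genes higher, and 0.925% lower, and SOX7 in 3D TNNT2+ cells, beside 4.19% higher; none of the 10 passed in 2D TNNT2- cells, beside 2.59%, or 3D TNNT2- cells, beside 2.65%. These results rest on both day 0 libraries. With the depleted replicate 2 alone as day 0, the fold changes in 2D TNNT2- and TNNT2+ cells were 3.93 and 3.91 for TAL1 and 3.71 and 3.49 for SPI1. They were 3.50 and 2.78 for RUNX3, 1.70 and 1.90 for SOX7, and 1.54 and 1.58 for ERG. For LYL1 they were 1.39 and 1.37, and for SOX18 1.15 and 1.11. For ETV2, FLI1 and RUNX1 they lay between -0.41 and 0.33 in 2D whichever library was left out.

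TAL1 guides summed to 704, 764 and 851 CPM in 2D TNNT2- cells and 767, 821 and 619.7 CPM in 2D TNNT2+ cells, against 591 and 453 CPM at day 0. All 6 sorted 2D libraries were above both day 0 libraries in CPM, as for 5.82% of all 1633 genes; on the averaged log2 scale TAL1 overlapped with day 0 in both 2D fractions. Of its guides, 4 of the 7 had under 10 reads in day 0 replicate 2. The log2 fold change was 2.08 ± 1.01 in TNNT2- cells and 2.06 ± 0.94 in TNNT2+ cells (adjusted p = 0.578), which is 1.36 and 1.37 above the median of all genes. Without day 0 replicate 2 it was 0.23 and 0.21, and summed over guides 0.14 and 0.09. In 3D the values were 1.37 ± 1.002 in TNNT2- cells and 1.34 ± 1.08 in TNNT2+ cells, and -0.21 and -0.24 without day 0 replicate 2. Among the guides against this early blood regulator, TAL1_3 is given in full because its unadjusted p was under 0.05 in all 4 comparisons (over all guides, 3.87% were higher at that level in 2D TNNT2- cells, 4.07% in 2D TNNT2+ cells, 2.38% in 3D TNNT2- cells and 1.34% in 3D TNNT2+ cells, and 0.212% in all 4, which share the day 0 libraries). That guide counted 244, 164 and 242 CPM in 2D TNNT2- cells, 215, 162 and 247 CPM in 2D TNNT2+ cells, 200.1, 226 and 214 CPM in 3D TNNT2- cells and 245, 373 and 73.0 CPM in 3D TNNT2+ cells, against 73.3 and 0.906 CPM at day 0. In 11 of the 12 sorted libraries it was above the better covered day 0 library, as were RUNX3_5 and SPI1_3, and FLI1_6 was in all 12. At the other end, RUNX3_7 and SOX18_4 were above that library in 0 of the 12, and ERG_7, LYL1_2, SOX7_3 and TAL1_5 in 1. These shares were not counted over all guides. TAL1_5 lay below day 0 without overlap in both 2D fractions, as did 13.7% of all guides in TNNT2- cells and 12.2% in TNNT2+ cells. It stood at -1.06 ± 0.62 and -1.44 ± 0.65 there (limma adjusted p = 0.558 and 0.597). At an unadjusted p under 0.05, 4 of the 70 guides were higher and 0 lower in 2D TNNT2- cells (all guides: 4.19% lower). In 2D TNNT2+ cells 3 were higher and 3 lower (3.71%), and in each 3D fraction 2 were higher and 0 lower (0.283% and 0.053%). The fold changes of TAL1_3 were 4.07 ± 1.17 (adjusted p = 0.558) in 2D TNNT2- cells and 4.05 ± 1.19 (adjusted p = 0.597) in 2D TNNT2+ cells. In 3D they were 4.40 ± 1.72 (adjusted p = 0.978) in TNNT2- cells and 4.51 ± 2.16 (adjusted p = 1) in TNNT2+ cells. Without day 0 replicate 2 they were 1.53 ± 0.44 in 2D TNNT2- cells, 1.502 ± 0.50 in 2D TNNT2+ cells, 2.11 ± 1.29 in 3D TNNT2- cells and 2.23 ± 2.23 in 3D TNNT2+ cells (smallest adjusted p 0.537).

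RUNX3 and SPI1 behaved like TAL1 in depending on day 0 replicate 2. RUNX3 guides summed to 607 and 250.3 CPM at day 0 in replicates 1 and 2, and SPI1 guides to 385 and 149.6 CPM. Replicate 2 was the lower of the pair in both, with 3 RUNX3 guides and 5 SPI1 guides under 10 reads. The RUNX3 fold change was 1.83 in 2D TNNT2- cells, 1.12 in 2D TNNT2+ cells, 1.65 in 3D TNNT2- cells and 1.06 in 3D TNNT2+ cells; without day 0 replicate 2 these were 0.17, -0.55, 0.26 and -0.33. In 2D TNNT2- cells the RUNX3 value did not overlap with day 0 on the averaged log2 scale, as for 22.9% of all genes, while in CPM it did. The SPI1 fold change was 1.78, 1.56, 1.13 and 1.59 in the same order, and -0.14, -0.37, -0.49 and -0.03 without day 0 replicate 2.

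In the limma fits of all libraries, ETV2 was below the median of all genes in all 4 comparisons. Its guides summed to 596 and 599 CPM at day 0, the 2 replicates lying close together, and the fold change was -0.30 ± 0.40 in 2D TNNT2- cells, -0.24 ± 0.45 in 2D TNNT2+ cells, -1.08 ± 0.84 in 3D TNNT2- cells and -0.80 ± 0.79 in 3D TNNT2+ cells. The 3D values each rested on a depleted library: they were -0.25 in TNNT2- cells and -0.13 in TNNT2+ cells when replicate 3 of that fraction was left out, and 0.03 in 3D TNNT2- cells with DESeq2. In both 2D fractions every library lay below both day 0 libraries on the log2 scale used, as for 3.7% of all genes in TNNT2- cells and 3.39% in TNNT2+ cells. Relative to the median of all genes the 2D values were -1.02 and -0.93. Neither passed the test (adjusted p = 0.619 and 0.77 in 2D TNNT2- and TNNT2+ cells). SOX7 had its highest value in 3D TNNT2+ cells, at 1.57 ± 0.70 (adjusted p = 0.907), beside 0.73 in 3D TNNT2- cells, 0.69 in 2D TNNT2- cells and 0.89 in 2D TNNT2+ cells. Without day 0 replicate 2 these were 0.81, -0.02, -0.31 and -0.12, so the sign turned in all but 3D TNNT2+ cells. That fraction's SOX7 value was 0.93 without the depleted 3D TNNT2+ replicate 3, and 0.45 with edgeR on all its libraries. On the averaged log2 scale FLI1 was lower than both day 0 libraries in every 3D TNNT2- library (-1.04 ± 0.88), as for 7.59% of all genes. In summed CPM the groups overlapped, at 704, 539 and 644 CPM in 3D TNNT2- cells against 609 and 931 CPM at day 0, and the median over guides gave a fold change of 0.13. FLI1 stood at -0.13 in 3D TNNT2+ cells, 0.23 in 2D TNNT2- cells and -0.03 in 2D TNNT2+ cells. RUNX1 and LYL1 were low in 3D TNNT2+ cells, at -1.39 and -1.03; without 3D TNNT2+ replicate 3 they were -0.25 and -0.35. ERG lay between 0.29 and 0.79 and SOX18 between -0.38 and 0.53 over the 4 comparisons. Without day 0 replicate 2, ERG lay between -0.38 and 0.12 and SOX18 between -0.76 and -0.10.

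Guides beyond both day 0 libraries in all 6 sorted libraries of a system were also counted. In 2D, 4 of the 70 were higher throughout (FLI1_3, SOX18_7, TAL1_3 and TAL1_7), beside 7.54% of all guides, and 4 were lower (ERG_7, ETV2_2, ETV2_4 and FLI1_5), beside 5.24%. In 3D, ETV2_6 alone was higher, beside 1.94% of all guides, and 5 were lower (ERG_2, LYL1_5, RUNX3_7, SOX18_2 and TAL1_5), beside 3.52%. No guide was beyond day 0 throughout in both systems. ETV2_2 counted 107, 89.4 and 94.6 CPM in 2D TNNT2- cells and 57.3, 94.1 and 70.4 CPM in 2D TNNT2+ cells, against 129 and 232 CPM at day 0. ETV2_6 counted 145, 230.3 and 280.4 CPM in 3D TNNT2- cells and 133, 134 and 280.3 CPM in 3D TNNT2+ cells, against 128 and 74.8 CPM at day 0. The 2 guides share a target, and ETV2_2 was below day 0 throughout in 2D only, ETV2_6 above it throughout in 3D only.

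A wider list of 30 blood and endothelial genes was drawn up beside the 10, of which 27 had guides in the library (CBFB, LMO2 and LDB1 had none). In the 2D sort 11 of the 27 were above 0 and 16 below, with a median of -0.06, beside 56.9% of all genes above 0. None was called after adjustment (smallest adjusted p 0.963), and 2 were lower at an unadjusted p under 0.05, beside 1.23% of all genes. These were GATA1, the erythroid and megakaryocyte factor (-0.48 ± 0.20, adjusted p = 0.963), and FOXC2, a factor of lymphatic vessels (-0.57 ± 0.26, adjusted p = 0.963). In the 3D sort 10 were above 0 and 17 below, with a median of -0.25, beside 45.8% of all genes above 0. None had an unadjusted p under 0.05 there, beside 0.802% of all genes higher and 2.1% lower. GATA1 stood at -0.68 ± 0.60 and FOXC2 at -1.49 ± 0.80 there, both with the sign they had in 2D. Other genes turned: FOXC1 was 0.37 in 2D and -1.72 in 3D, BCL11A 0.30 and -1.27, and ETS1 -0.34 and 0.89. In 2D the fractions did not overlap for HHEX (higher), GATA1 and SOX17 (lower), beside 4.81% of all genes higher and 3.64% lower. In 3D they did not for ETS1 (higher), BCL11A, FOXC2, IKZF1 and MECOM (lower), beside 2.78% and 4.75%. GATA2, which acts with TAL1 and RUNX1 in blood stem cells, was -0.24 ± 0.32 in 2D and 0.62 ± 0.73 in 3D, and SOX17, the third SOXF factor, -0.24 ± 0.19 and 0.33 ± 0.64. Against day 0, 2 of the 27 were higher at an unadjusted p under 0.05 in 2D TNNT2- cells (2.59% of all genes), 2D TNNT2+ cells (4.01%) and 3D TNNT2+ cells (4.19%) and 0 in 3D TNNT2- cells (2.65%), and none passed adjustment.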

How the data were processed

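Guide cassettes were amplified from genomic DNA of H9 cells in a pair of PCR rounds and sequenced single-end, per the labels' protocols. The submitters' processing notes name MAGeCK and the build hg38; the version and settings were not stated. In the deposited signal, each library's guide reads had been divided by a factor of its own, set separately in the 2D and the 3D table, so tests were run within a table and only the difference of the sorts joined both. Dividing by the smallest value above 0 gave whole reads for 100% of the values (within 1e-06), from which CPM and depth were taken. The same 2 day 0 libraries stand in both tables.

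Limma 3.58.1 (R 4.3.3) with a mean-variance trend was fitted to log2(value + 10) of all guides with a mean value of at least 10, or to the mean over guides for the 1621 genes with at least 3 such guides; all 70 guides passed in every comparison of the sorts and with day 0. P-values were adjusted over the whole table by the Benjamini-Hochberg method, and calls were made at 0.05. Groups came from sample titles. The test was tried on simulated data first. Alternatives were edgeR 4.0.16 and DESeq2 1.42.0 on the recovered reads, other pseudocounts (1 and 100), filters, scalings and gene summaries, a replicate block and leaving out libraries. Gene positions come from RefSeq. PCR reads carry no molecular identifiers, so read numbers overstate precision.

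The 10 genes, the wider list and the depleted libraries were chosen with earlier results of these data known. All 10 genes were named, with those guides whose fractions did not overlap, those with an unadjusted p under 0.05 and the most changed guide of each gene in each sort; guides named against day 0, FLI1_2, FLI1_4, FLI1_7 and the other genes of the list in the text were chosen after their values were seen.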

Additional observations from a re-analysis of the deposited data

How the results depend on the processing

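No count of calls among the 10 genes or 70 guides changed in either sort under any alternative. In the difference of the sorts, the count among the 10 genes did not change either, and guides were not refitted there. Over all features, DESeq2 on the recovered reads called 5 guides in the 2D sort, and 8 guides and 2 genes in the 3D sort; the 3D sort gave 2 guides scaled on the control guides, 3 with TMM scaling and 0 to 2 genes with a replicate left out. Against day 0, DESeq2 called 104 guides and 11 genes in 2D TNNT2- cells, and 109 guides and 11 genes in 2D TNNT2+ cells. It called 23 guides and 6 genes in 3D TNNT2- cells, and 16 guides and 1 gene in 3D TNNT2+ cells. EdgeR called none in any comparison it was run on, and none of the DESeq2 calls was among these genes or guides. A pseudocount of 100 gave 4 guides in each 2D fraction against day 0, and no filter gave 1 guide in 2D TNNT2- cells. TMM scaling gave 2 guides in 3D TNNT2+ cells against day 0. For 3D TNNT2- cells against day 0, limma called 2 guides of 11324. There the count was 1 with a pseudocount of 100, 21 scaled on the control guides, 13 with TMM scaling, 0 with edgeR and 0 without the 3 depleted libraries; for genes it was 1 with the median over guides. With a replicate left out, the calls against day 0 ran over 0 to 7399 guides and 0 to 1266 genes in 2D TNNT2- cells (0 to 45 and 0 to 7 among those described), 0 to 6337 guides and 0 to 1071 genes in 2D TNNT2+ cells (0 to 38 and 0 to 7), and 0 to 130 guides (0 to 1) and 0 to 38 genes in 3D TNNT2- cells. The high ends all came without day 0 replicate 1, which leaves day 0 to the depleted replicate 2, the lone library being assumed to vary like the others. The 7 genes called in 2D TNNT2- cells without day 0 replicate 2 held none of the 10. Scaled on the control guides, the median of all genes in 2D TNNT2- cells against day 0 was 1.003 in place of 0.72.

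Same-numbered fractions correlated in their deviations from the group means at 0.109, 0.056 and 0.0735 (3D) and at 0.0767, 0.108 and 0.126 (2D), and every library matched its own number best. Not every pair passed 0.1, so the number was taken as a name only. The replicate block called 0 guides and 0 genes in both sorts and, for 3D TNNT2- cells against day 0 over the numbers shared, 90 guides and 1 gene; FLI1_7, lower, was among them. With the block RUNX3 had an adjusted p of 0.896 in the 2D sort. Of the 10 genes, RUNX3 and SOX7 kept their sign in every alternative in the 2D sort. FLI1, LYL1, RUNX1 and SOX7 did so in the 3D sort, and FLI1, LYL1 and RUNX1 in the difference of the sorts. For RUNX3 in the 2D sort, leaving out any library could not turn the sign, as its fractions did not overlap. The causes of these changes were not tested.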
